A study of Mus musculus with 7 samples.

Results

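The ERBB family of receptor tyrosine kinases and their ligands were followed across the 7 libraries by taking 10 named genes, 4 receptors (Egfr, Erbb2, Erbb3 and Erbb4) and 6 ligands (Hbegf, Areg, Ereg, Tgfa, Nrg1 and Btc), out of 32285 genes in the count tables. The genes were listed by name, and all 10 were found and passed the filter on low counts. Utricles of wild-type P2 mice (postnatal day 2) were cultured as whole-organ explants, damaged with 2 mM gentamicin, an aminoglycoside toxic to hair cells, for 24 h, and collected on day 5 after the injury. Both groups received gentamicin, so neither is an undamaged control. The Gent+Fos OE group (n = 4 libraries) was also given AAV-PHP.eB carrying Fos for 48 h, and the Gent group (n = 3) was labelled with gentamicin alone. A library holds the RNA of 12 utricles as 1 pool, and the errors given here are therefore errors between pools, not between animals. The names given to the Gent counts contain the letters "sh", which can also stand for a short hairpin RNA, while the labels name no such treatment. The study names its comparison group in some places as a gentamicin control and in another as a control AAV group, and its control vector elsewhere is AAV-CMV-EGFP. The sources used here thus differ on whether the Gent utricles were given a virus and do not settle what it carried, and the fold changes below take the labels as they stand. If they received none, a response to the virus itself cannot be told apart from one to Fos. By the study's methods the Fos construct was driven by a CMV promoter, which is not specific to a cell type, and the labels do not say which cells took it up.

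ERBB receptors are membrane kinases that pair up when a ligand binds. Egfr binds Hbegf, Areg, Ereg, Tgfa and Btc, Erbb3 and Erbb4 bind neuregulins such as Nrg1, Erbb4 also takes Hbegf, Ereg and Btc, and Erbb2 has no known ligand of its own and works as the partner of the others. Erbb3 has little kinase activity and signals through its partner. The ligands are made as membrane-bound precursors and are released by metalloproteases, and the receptors act through the RAS and ERK cascade and through PI3 kinase. In the inner ear, ERBB signalling is known for its part in supporting cell proliferation and in the exchange between Schwann cells and neurons. Fos is a subunit of the AP-1 transcription factor, which binds TGANTCA.

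The libraries held 27879889 to 34335214 counts. Fos itself was at 149 to 167 CPM (counts per 1000000 counts of the library, corrected by the TMM method) in Gent+Fos OE and at 34.6 to 40.6 CPM in Gent, a log2 fold change of 2.01 (SE 0.13, adjusted p = 0.000142 by edgeR's quasi-likelihood F-test), in counts that do not separate the Fos of the vector from that of the cells. Markers of the labelled tissue were present: Myo7a, a hair cell myosin, was at 97.1 ± 11.1 (SD, n = 4) and 91.5 ± 6.72 CPM (n = 3), and Sox2, a supporting cell factor, at 97.8 ± 8.83 and 92.7 ± 14.95 CPM. Gent replicate 2 stood apart, with its genes' deviation from the mean of all libraries following gene length at Spearman's rho of -0.50 across genes, which are not independent replicates, against -0.22 to 0.33 in the other libraries. All of the family but Areg, 9 genes, are longer than the median tested gene, with a median of 5613 exonic bases over all 10 against 4084 over the tested genes. For this reason the length trend was also removed, and Gent replicate 2 also left out.

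None of the 10 genes passed the limits for a call, which were an edgeR adjusted p under 0.01 together with a log2 fold change beyond 0.25 in either direction, while 0.414% of the 17155 tested genes, 71 genes, were called. At an unadjusted p under 0.05 by edgeR, 4 genes had a higher level in Gent+Fos OE (Erbb3, Erbb4, Hbegf and Tgfa) and 0 were lower, where 11.1% of all tested genes were higher and 13.4% lower at this limit. The 7 values of 4 genes (Erbb2, Erbb3, Erbb4 and Hbegf) did not overlap between the groups, each with Gent+Fos OE above, and 0 genes were apart in the other direction. Over all tested genes, 11.3% were apart with Gent+Fos OE above and 12.2% with it below. The median log2 fold change of the 10 genes was 0.49, beside -0.00 over all tested genes and 0.12 over the tested genes of 4000 to 16000 exonic bases, a range that holds 9 of the 10. Within that range, 15.6% of the tested genes were higher at an unadjusted p under 0.05 by edgeR. After the length trend was removed, the median of the 10 was 0.45 and that of all tested genes 0.00, and 4 genes were higher at an unadjusted p under 0.05 by edgeR against 9.89% of all tested genes.

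DESeq2 also called 0 of the 10 genes at the limits above, for which its share over all genes is not given here. At a DESeq2 adjusted p under 0.05, a limit without a fold change, 3 genes passed, Erbb3 (adjusted p = 0.0446), Erbb4 (0.0135) and Hbegf (0.0191), where 8.59% of the genes with a DESeq2 adjusted p did. In limma-voom with sample quality weights, which gives less weight to libraries that vary more, 1 gene was called, Hbegf, with a log2 fold change of 0.97 and an adjusted p of 0.0027, where 5.6% of all tested genes were called. With 4 and 3 libraries, the smallest p of the exact permutation test over the 35 splits is 0.0286.

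**Figure D1:**
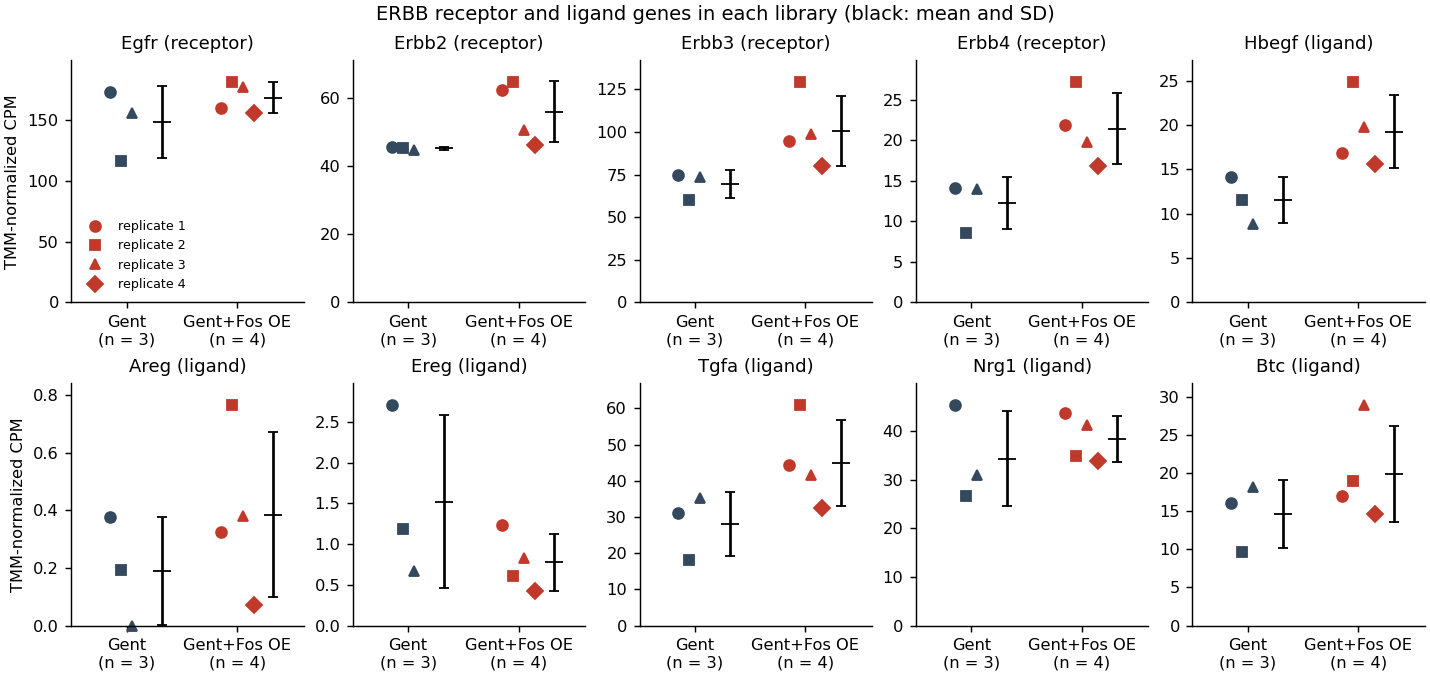
TMM-normalized CPM (y axis, from 0 in each panel) of the 4 receptor and 6 ligand genes in the 3 Gent and 4 Gent+Fos OE libraries, with marker shapes for replicate numbers and black marks for the mean and SD. The groups do not overlap for Erbb2, Erbb3, Erbb4 and Hbegf, and Gent+Fos OE replicate 4 is the lowest of its group in all 10 panels.

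Egfr (ENSMUSG00000020122, chr11:16752203-16918158 of mm10), the receptor of EGF and most of the ligands here, was at 160, 182, 177 and 156 CPM in Gent+Fos OE replicates 1 to 4 and at 174, 116 and 156 CPM in Gent replicates 1 to 3. The groups overlapped, with Gent replicate 1 above 2 of the Gent+Fos OE libraries and Gent replicate 2 below all the others. The log2 fold change was 0.18 (SE 0.15, edgeR adjusted p = 0.464, exact permutation p = 0.2). Without Gent replicate 2 it was 0.03 (SE 0.10), and with the length trend removed it was -0.11 (SE 0.10), while without Gent replicate 1 it was 0.31. Its direction turned with the length trend. No difference in Egfr was detectable between these libraries.

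Erbb2 (ENSMUSG00000062312, chr11:98412470-98437716), the shared partner receptor, was at 62.5, 64.7, 50.7 and 46.2 CPM in Gent+Fos OE and at 45.5, 45.3 and 44.9 CPM in Gent. The groups did not overlap, but the gap between the lowest Gent+Fos OE library, replicate 4, and the highest Gent library was under 1 CPM. Its log2 fold change was 0.31 (SE 0.14, edgeR adjusted p = 0.211, exact permutation p = 0.0857). It was 0.31 without Gent replicate 2 and 0.26 with the length trend removed.

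Erbb3 (ENSMUSG00000018166, chr10:128567523-128589652), a neuregulin receptor, was at 94.6, 129, 98.5 and 79.99 CPM in Gent+Fos OE and at 74.6, 59.8 and 73.6 CPM in Gent. All Gent+Fos OE libraries lay above all Gent libraries, with replicate 2 the highest. This gave a log2 fold change of 0.54 (SE 0.17, edgeR adjusted p = 0.118, exact permutation p = 0.0571). Leaving out Gent+Fos OE replicate 2 gave 0.39 and leaving out Gent replicate 2 gave 0.44. Erbb3 is also a gene of Schwann cells, and 4 of 12 markers of Schwann cells and glia were lower in Gent+Fos OE at an unadjusted p under 0.05 by edgeR and 0 were higher, beside 13.4% and 11.1% of all tested genes. Their summed level was 599 to 753 CPM in Gent+Fos OE and 560 to 871 CPM in Gent, and 0 of the 12 were at 0 in any library. Their log2 fold changes went both ways around a median of -0.31, with Pmp22, a myelin protein gene, at -0.54 (SE 0.12, edgeR adjusted p = 0.0457), Sox10, a factor of the lineage, at -0.09 (SE 0.24) and Mbp, a further myelin protein gene, at 0.36 (SE 0.17). Sox10 turned to 0.26 without Gent replicate 2 and to 0.07 with the length trend removed, where Mbp was at 0.14 and Pmp22 at -0.35. Their part in the level of Erbb3 was not tested. In such bulk libraries, more cells of a type and more RNA per cell cannot be told apart, nor fewer cells and less RNA.

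Erbb4 (ENSMUSG00000062209, chr1:68032186-69108059), the other neuregulin receptor with kinase activity of its own, had the lowest edgeR p of the family. It was at 21.9, 27.2, 19.8 and 16.8 CPM in Gent+Fos OE and at 14.2, 8.53 and 14.0 CPM in Gent. The groups did not overlap, and Gent replicate 2 was below the other Gent libraries. The log2 fold change was 0.81 (SE 0.22, edgeR adjusted p = 0.0879, exact permutation p = 0.0286). It was 0.60 (SE 0.18) without Gent replicate 2 and 0.49 (SE 0.16) with the length trend removed. With 12355 exonic bases, Erbb4 is among the longest of the 10 genes, next to Nrg1 with 15433 and Egfr with 11326.

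Hbegf (ENSMUSG00000024486), the heparin-binding ligand of Egfr and Erbb4, was at 16.8, 24.8, 19.7 and 15.6 CPM in Gent+Fos OE and at 14.1, 11.5 and 8.90 CPM in Gent. The groups did not overlap, and Gent replicate 2 was not the lowest of its group here. Its log2 fold change was 0.75 (SE 0.21, edgeR adjusted p = 0.0952, exact permutation p = 0.0286). It was 0.74 without Gent replicate 2 and 0.73 with the length trend removed, the least moved of the 4 genes under p of 0.05. Leaving out each library in turn gave 0.59 to 0.92.

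Tgfa (ENSMUSG00000029999, chr6:86195223-86275719), a ligand of Egfr, was at 44.3, 60.9, 41.7 and 32.4 CPM in Gent+Fos OE and at 31.0, 18.04 and 35.2 CPM in Gent. The groups overlapped, since Gent replicate 3 lay above Gent+Fos OE replicate 4. This gave a log2 fold change of 0.67 (SE 0.25, edgeR adjusted p = 0.154, exact permutation p = 0.0857). It was 0.43 (SE 0.20) without Gent replicate 2, 0.49 without Gent+Fos OE replicate 2 and 0.57 with the length trend removed. The lowest value, 0.33 (SE 0.16), was that of limma-voom with sample quality weights.

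Btc (ENSMUSG00000082361, chr5:91357261-91402994), betacellulin, a ligand of Egfr and Erbb4, was at 16.9, 18.9, 28.9 and 14.7 CPM in Gent+Fos OE and at 16.1, 9.62 and 18.2 CPM in Gent. Gent+Fos OE replicate 3 was well above the other 6 libraries, which overlapped. Its log2 fold change was 0.44 (SE 0.27, edgeR adjusted p = 0.319, exact permutation p = 0.314). It was 0.20 without Gent+Fos OE replicate 3 and 0.21 without Gent replicate 2.

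Nrg1 (ENSMUSG00000062991, chr8:31814551-32884797), the neuregulin ligand of Erbb3 and Erbb4, was at 43.6, 34.9, 41.2 and 33.8 CPM in Gent+Fos OE and at 45.3, 26.6 and 31.0 CPM in Gent. Gent replicate 1 lay above all 4 Gent+Fos OE libraries, while Gent replicates 2 and 3 lay below all of them. The log2 fold change was 0.16 (SE 0.19, edgeR adjusted p = 0.606, exact permutation p = 0.457). It was 0.41 (SE 0.16) without Gent replicate 1, 0.00 (SE 0.16) without Gent replicate 2, 0.09 without Gent replicate 3 and -0.23 (SE 0.13) with the length trend removed. Of its exonic bases, 1.2% are shared with another gene.

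Areg and Ereg, the amphiregulin and epiregulin ligands, had the fewest counts of the 10 genes. Areg (ENSMUSG00000029378, chr5:91139599-91148432) had 10, 25, 12 and 2 counts in Gent+Fos OE and 11, 6 and 0 counts in Gent. The count of 0 in Gent replicate 3 allows a level of up to 0.0867 CPM (3 counts, counting error only). The log2 fold change was 1.06 (SE 0.93, edgeR adjusted p = 0.49, exact permutation p = 0.4), and the groups overlapped. The value moved with single libraries and with the fit, to 2.02 without Gent replicate 1, 0.45 without Gent replicate 3 and 0.49 without Gent+Fos OE replicate 2. Under limma-voom with sample quality weights it was 3.51 (SE 0.95, adjusted p = 0.024), which did not pass the limit for a call. Ereg (ENSMUSG00000029377, chr5:91074622-91093646) had 38, 20, 26 and 12 counts in Gent+Fos OE and 79, 37 and 23 counts in Gent. It was the only one of the 10 genes with a fold change below 0, at -0.96 (SE 0.53, edgeR adjusted p = 0.278, exact permutation p = 0.229), and the groups overlapped. Without Gent replicate 1 the value for Ereg was -0.25, and under limma-voom with sample quality weights it was -0.16.

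**Figure D2:**
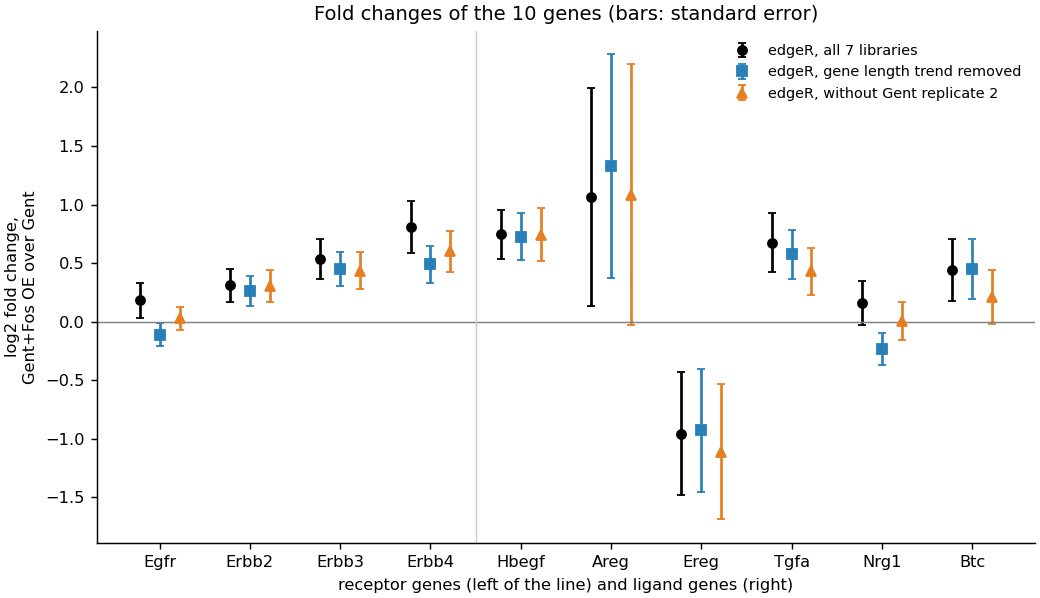
Log2 fold change of Gent+Fos OE over Gent (y axis) with its standard error for the 10 genes by edgeR, for all 7 libraries, with the gene length trend removed, and without Gent replicate 2. Hbegf is nearly the same in the 3 fits (0.75, 0.73 and 0.74), Erbb4 comes down from 0.81 to 0.49 and 0.60, and Egfr and Nrg1 go from 0.18 and 0.16 to -0.11 and -0.23 with the length trend removed.

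The libraries of a group ranked alike for many of the 10 genes. Gent+Fos OE replicate 4 was the lowest of its group for 10 of 10 genes, and for 27.2% of all tested genes. Gent+Fos OE replicate 2 was the highest of the 7 libraries for 7 genes, against 18.5% of all tested genes, and Gent replicate 2 the lowest for 6, against 32.3%. The 10 genes are thus not 10 separate looks at the difference between the groups.

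Between genes, levels were compared per kilobase of exon. In Gent, the order by mean CPM per kilobase was Egfr (13.1 ± 2.60), Erbb3 (11.5 ± 1.38), Erbb2 (8.68 ± 0.06), Tgfa (4.33 ± 1.38), Btc (3.23 ± 0.99), Hbegf (2.38 ± 0.54), Nrg1 (2.22 ± 0.63), Erbb4 (0.99 ± 0.26), Ereg (0.37 ± 0.26) and Areg (0.16 ± 0.15), with SD over 3 libraries. Btc and Hbegf kept this order in 2 of 3 libraries and Hbegf and Nrg1 in 1 of 3, so these neighbours did not differ beyond their spread. In each Gent library the other neighbours ranked the same way.

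In Gent+Fos OE, Erbb3 came first with 16.7 ± 3.44 CPM per kilobase (SD, n = 4) and Egfr next with 14.9 ± 1.11, in this order in 3 of 4 libraries. Erbb2 followed at 10.8 ± 1.72, Tgfa at 6.90 ± 1.83, Btc at 4.39 ± 1.39, Hbegf at 3.98 ± 0.846, Nrg1 at 2.49 ± 0.312 and Erbb4 at 1.73 ± 0.354. Btc was above Hbegf in 3 of 4 libraries, and Areg (0.317 ± 0.236) above Ereg (0.188 ± 0.0843) in 2 of 4. The same rank was held in both groups by 6 genes, and by 4 without Gent replicate 2. Erbb3 and Egfr changed places, as did Areg and Ereg, and neither pair was separate in every Gent+Fos OE library.

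**Figure D3:**
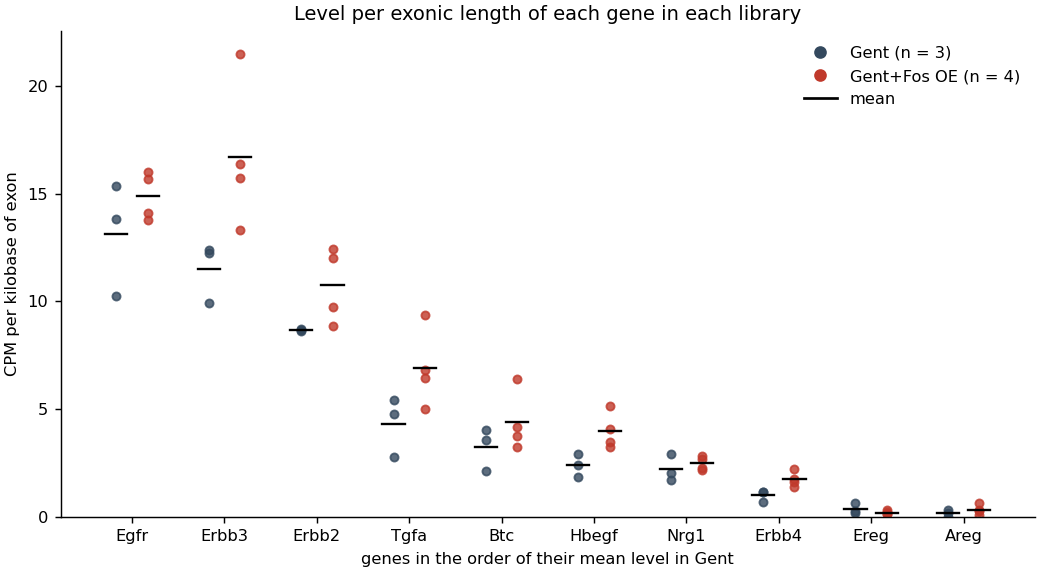
CPM per kilobase of exon (y axis) of the 10 genes in each library, in the order of their mean in Gent, with bars for group means. Within each library, Egfr, Erbb3 and Erbb2 lie above all ligands and Tgfa is the highest ligand. Across libraries, Tgfa in Gent+Fos OE replicate 2 lies above Erbb2 in Gent+Fos OE replicate 4 and in Gent. Ereg and Areg lie near 0 in all 7 libraries.

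The sum of the 4 receptors per kilobase was 43.6, 52.1, 43.4 and 37.3 in Gent+Fos OE and 37.6, 29.6 and 35.8 in Gent, with Gent+Fos OE replicate 4 just below Gent replicate 1. Erbb4 made up 3.91% ± 0.281 (SD, n = 4) of that sum in Gent+Fos OE and 2.85% ± 0.452 (n = 3) in Gent, the smallest share of the 4 in both. The share of Egfr was 34.1% ± 2.97 and 38.0% ± 3.07, and that of Erbb3 37.7% ± 2.53 and 33.6% ± 0.602. Among the ligands, Tgfa made up 37.6% ± 4.72 of the sum in Gent+Fos OE and 33.8% ± 5.80 in Gent, with overlapping libraries.

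Ratios between receptors within a library do not depend on the scaling of libraries. The 6 pairs were taken after the data were seen. The log2 ratio of Erbb4 to Egfr, genes of similar exonic length, was -2.99, -2.86, -3.29 and -3.34 in Gent+Fos OE and -3.74, -3.90 and -3.61 in Gent. All Gent+Fos OE libraries lay above all Gent libraries, and the means differed by 0.63 (exact permutation p = 0.0286, adjusted over the 6 pairs 0.0571). Erbb4 to Erbb2 differed by 0.53 and Erbb4 to Erbb3 by 0.30, each without overlap and each with an exact permutation p of 0.0286 (adjusted 0.0571). Gent replicate 2 had the lowest ratio of Erbb4 to each of the other receptors. Without it, the differences were 0.55 for Erbb4 to Egfr, 0.29 for Erbb4 to Erbb2 and 0.16 for Erbb4 to Erbb3. With the length trend removed, the fold changes of these pairs differed by 0.60, 0.22 and 0.04. Erbb3 to Egfr differed by 0.32 (exact permutation p = 0.0857, adjusted 0.129), and Erbb2 to Egfr by 0.10 (exact permutation p = 0.6). With the length trend removed, the fold changes of these pairs differed by 0.56 and 0.38, and without Gent replicate 2 the ratios differed by 0.39, where the groups of Erbb3 to Egfr no longer overlapped, and by 0.26. Erbb3 to Erbb2 differed by 0.23 (exact permutation p = 0.2, adjusted 0.24), by 0.12 without Gent replicate 2 and by 0.18 with the length trend removed. No ratio passed an adjusted p of 0.05, and the test could reach no lower raw p than the one given for Erbb4.

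**Figure D4:**
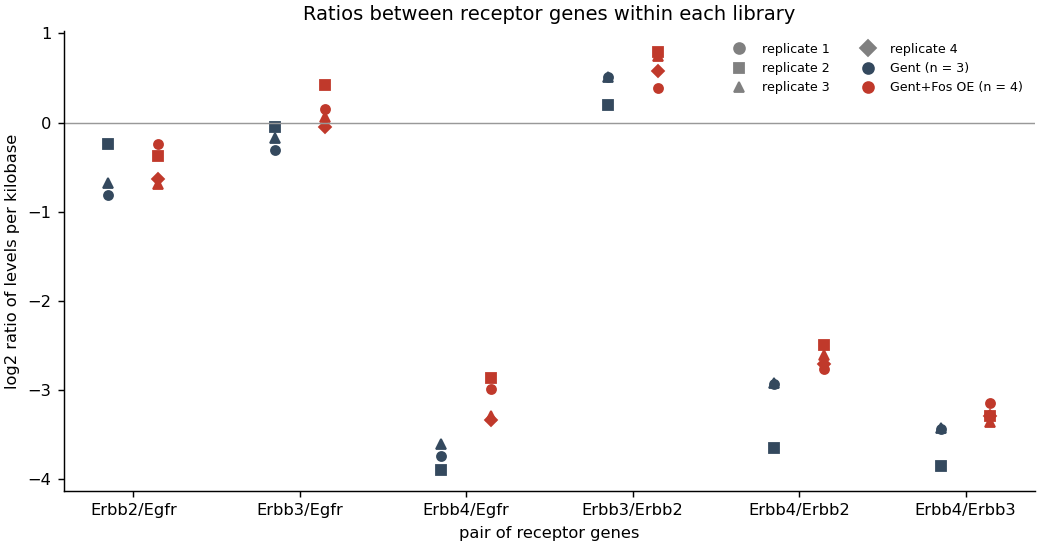
Log2 ratio of the levels per kilobase (y axis) for the 6 pairs of receptor genes, 1 point per library, with marker shapes for replicate numbers. The Gent+Fos OE points lie above the Gent points in the 3 pairs with Erbb4 as numerator and mix with them in the other 3.

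Of the windows from 250 bases before to 50 bases after the gene start in RefSeq (GRCm38.p6, the build of the counts), 6 of the 10 genes had 1 in the table used: Egfr, Erbb2, Erbb4, Areg, Tgfa and Btc. The AP-1 motif TGANTCA, searched on both strands, was in 0 of the 6 windows and in 7.81% of 32851 windows of all genes. The cyclic AMP response motif TGACGTCA was in 1 of the 6, that of Areg, with its first base 61 bases before the start (position -61), and in 1.79% of all windows. The GC box GGGCGG, searched on both strands and added after the data were seen, was in the windows of Egfr, Areg and Tgfa and in 35.7% of all windows, and TATAAA was in that of Areg at position -31 and in 13.6% of all windows. None of these matches overlapped. A match or its absence in these windows says nothing of binding. The bases before the start are shown for Areg, the gene with the cyclic AMP response motif (capitals), for Tgfa, the highest ligand, with its GC boxes in capitals, and for Erbb4, the receptor with the lowest p, which held none of these letters.
Areg, chr5:91139349-91139598, plus strand: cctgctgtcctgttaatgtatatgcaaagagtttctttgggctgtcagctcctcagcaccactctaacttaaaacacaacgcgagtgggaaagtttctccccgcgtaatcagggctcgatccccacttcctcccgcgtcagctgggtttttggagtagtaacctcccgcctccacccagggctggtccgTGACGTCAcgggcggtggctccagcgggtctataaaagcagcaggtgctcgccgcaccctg
Tgfa, chr6:86194972-86195221, plus strand: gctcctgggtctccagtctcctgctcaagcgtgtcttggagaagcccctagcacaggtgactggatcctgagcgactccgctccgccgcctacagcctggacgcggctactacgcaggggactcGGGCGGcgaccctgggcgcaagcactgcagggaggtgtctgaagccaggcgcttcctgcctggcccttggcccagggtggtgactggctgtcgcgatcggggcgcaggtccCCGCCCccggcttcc
Erbb4, chr1:69108060-69108309, minus strand: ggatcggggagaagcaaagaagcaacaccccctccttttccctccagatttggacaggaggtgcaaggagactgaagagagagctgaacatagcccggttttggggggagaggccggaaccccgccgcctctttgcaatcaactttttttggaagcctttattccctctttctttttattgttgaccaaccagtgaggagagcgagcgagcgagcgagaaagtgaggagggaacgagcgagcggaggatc
The window of Areg was 59.3% G and C, that of Tgfa 70.7% and that of Erbb4 55.3%, beside a median of 52.7% over all windows.

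Areg, Ereg and Btc lie with Epgn, a further ligand gene, in 375.5 kb of chromosome 5 (91027464 to 91402994). Levels along it were unequal. In Gent+Fos OE the mean CPM per kilobase was 4.39 for Btc, 0.317 for Areg, 0.188 for Ereg and 0.034 for Epgn. In Gent it was 3.23, 0.156, 0.368 and 0.035. Epgn had 0 to 6 counts in all 7 libraries. Of the 5 other ERBB ligands, Epgn and Nrg3 (2 to 12 counts) were too low to be tested, and 0 of the other 3 passed an unadjusted p of 0.05 by edgeR. Egf itself was at 25.6 ± 3.42 CPM in Gent+Fos OE and 29.5 ± 8.86 CPM in Gent, with a log2 fold change of -0.21 (SE 0.20, edgeR adjusted p = 0.534), -0.49 with the length trend removed and -0.41 without Gent replicate 2. Nrg2 had a log2 fold change of 0.41 (SE 0.49), and of 1.02 without Gent replicate 2, and Nrg4 of -0.42 (SE 0.29).

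The genes that make, restrain and relay the signal were taken from 5 lists with 74 genes, of which 72 were tested. None was called by edgeR, 9 were higher (12.5%) and 2 lower (2.78%) at an unadjusted p under 0.05, beside 11.1% and 13.4% of all tested genes. The median log2 fold change over the 72 genes was 0.15, and 0.08 with the length trend removed. By list, 0 higher and 1 lower of 10 were found for ligand shedding and trafficking, 2 and 0 of 17 for receptor inhibitors and turnover, 4 and 1 of 27 for adaptors and signal relay, and 3 and 0 of 15 for ERK feedback and response genes.

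Among the genes that release the ligands, Cnih1, which carries precursors out of the endoplasmic reticulum, had a log2 fold change of -0.36 (SE 0.13, edgeR adjusted p = 0.141), and -0.10 with the length trend removed. Rhbdf1, which helps the sheddase Adam17 mature, was at -0.19 (SE 0.16) and at 0.04 without Gent replicate 2, and the metalloproteases Adam10 and Adam12 at 0.30 (SE 0.21) and 0.44 (SE 0.26). Without Gent replicate 2, Adam10 was at 0.04 and Adam12 at 0.24, and Adam12 was at 0.21 with the length trend removed. Among the inhibitors, Lrig1 and Lrig2, membrane proteins of which Lrig1 lowers receptor levels, were at 0.39 (SE 0.17) and 0.42 (SE 0.17), and the phosphatases Ptpn1 and Ptpn2 at -0.20 and -0.15. Without Gent replicate 2, Lrig1 was at 0.21 and Lrig2 at 0.22, and with the length trend removed Lrig2 was at 0.13 and Ptpn2 at -0.02.

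In the relay, Braf, a kinase above ERK, was at 0.52 (SE 0.20, edgeR adjusted p = 0.163) and Sos2, an exchange factor for RAS, at 0.48 (SE 0.19, edgeR adjusted p = 0.167). Hras, a RAS gene, was at -0.55 (SE 0.18, edgeR adjusted p = 0.124), and Mapk3, which encodes an ERK kinase, at -0.30 (SE 0.14, edgeR adjusted p = 0.217). With the length trend removed, Braf was at 0.18, Sos2 at 0.30 and Mapk3 at -0.08. Without Gent replicate 2, all of them were nearer to 0, Braf at 0.27, Sos2 at 0.25, Hras at -0.29 and Mapk3 at -0.13.

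Dusp5, an ERK phosphatase that is itself a target of ERK signalling, was at 29.0, 61.5, 38.6 and 32.7 CPM in Gent+Fos OE and at 23.4, 20.3 and 22.4 CPM in Gent. All Gent+Fos OE libraries were above all Gent libraries, with replicate 2 the highest, as for 7 of the 10 receptor and ligand genes. Its log2 fold change was 0.88 (SE 0.24, edgeR adjusted p = 0.0859), and DESeq2 called it with an adjusted p of 0.00952. Ccnd1, cyclin D1 of the cell cycle, was at 153, 280, 179 and 150 CPM in Gent+Fos OE and at 149, 61.9 and 94.4 CPM in Gent. Its groups were apart by about 1 CPM, between Gent+Fos OE replicate 4 and Gent replicate 1. For Ccnd1 the log2 fold change was 0.90 (SE 0.30, edgeR adjusted p = 0.124), 0.64 without Gent replicate 2, and limma-voom with sample quality weights called it at 0.84 with an adjusted p of 0.00743. Other ERK response genes went the other way in value, Etv4 at -0.37 (SE 0.21) and Ier3 at -0.32 (SE 0.16). With the length trend removed they were at -0.23 and -0.03, and Ier3 was at -0.13 without Gent replicate 2.

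**Figure D5:**
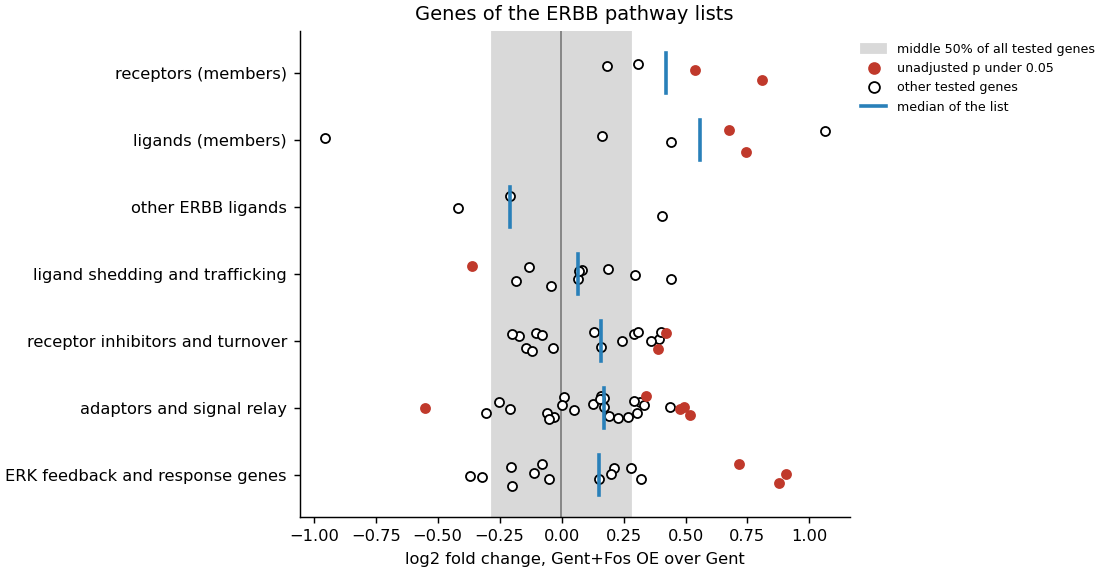
Log2 fold change of Gent+Fos OE over Gent (x axis, edgeR) of each tested gene in the receptor and ligand lists and in the 5 lists of the pathway (y axis), with the middle 50% of all tested genes in grey (-0.28 to 0.28). Filled points have an unadjusted p under 0.05, and blue bars give the median of each list, from 0.42 for the receptors and 0.56 for the ligands to 0.15 for the ERK feedback and response genes and -0.21 for the other ligands.

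Markers of other cells were counted between the same groups, at an unadjusted p under 0.05 by edgeR, a limit at which 11.1% of all tested genes were higher and 13.4% lower. Of them, 7 of 10 macrophage markers were lower in Gent+Fos OE and 0 were higher, with a summed level of 965 to 1609 CPM against 1736 to 2122 CPM in Gent and none at 0. Of 10 melanocyte markers 7 were lower, 3 of them called, with a summed level of 889 to 1278 CPM against 1043 to 1303 CPM, most of it Gpnmb, which macrophages also express. Of 12 hair cell markers 5 were higher and 0 lower (879 to 1095 against 737 to 881 CPM). The median log2 fold change of these 12 was 0.16, or 0.08 with the length trend removed, and 7 of them were above 0. Of 11 tested supporting cell markers 3 were higher and 1 lower (2910 to 3559 against 2258 to 2753 CPM), with Otog called at 1.25 (SE 0.18, edgeR adjusted p = 0.00851). Without Otog and Tecta, genes of the extracellular matrix above the hair cells, the sum of the other 10 supporting cell markers overlapped (1499 to 1769 against 1461 to 1918 CPM), and the median log2 fold change of the whole list was 0.04, or 0.27 with the length trend removed. Mesenchyme markers had 2 of 10 lower (6750 to 10220 against 8282 to 12215 CPM), neuron markers 2 of 9 higher (218 to 271 against 192 to 220 CPM), endothelium markers 2 of 9 higher (135 to 182 against 146 to 211 CPM), stratified epithelium markers 2 of 7 higher (69.5 to 110 against 38.0 to 75.1 CPM), and markers of dark cells and nonsensory epithelium 0 of 12 (1620 to 1845 against 1566 to 1821 CPM). Hes5, Tie1, Cldn5, Otx2 and the keratins Krt14, Krt15, Krt6a, Krt4 and Krt13 were at 0 in at least 1 library. The part of these cells in the levels of the receptor and ligand genes was not tested.

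As a description of likeness over the 7 libraries, the genes whose log2 CPM followed Egfr most closely among 14196 genes were Zc3h13, Utp20 and Spcs3, with Pearson's r of 0.997, 0.993 and 0.991. For Tgfa, the ligand with the highest level per length, they were Adgra3, Ror1 and Tnfrsf10b, with r of 0.997, 0.995 and 0.990. The points share library and depth, and each trio was picked as the highest of all genes searched.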

How the data were processed

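RNA of pooled mouse utricles was sequenced in 7 libraries. Per the file headers, the authors made whole read counts per gene with featureCounts 2.0.6 on an mm10 annotation, without strand, without multi-mapping reads and with the reads of a pair counted separately, and deposited them without normalization. The labels list Trim Galore 0.6.10, HISAT2 2.2.1 and DESeq2 1.34.0, whereas the study's methods name mm39. The methods state 3 replicates per condition and the labels 4 and 3, and all were used. A symbol was assigned to 24506 genes for which it matched in GENCODE and RefSeq, and 7892 genes share exonic bases with another.

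Genes passing filterByExpr (17155) were normalized by TMM and compared by the quasi-likelihood F-test of edgeR 4.0.16, its p-values adjusted by Benjamini-Hochberg over all of them (R 4.3.3). A call required an adjusted p below 0.01 with a log2 fold change beyond 0.25 in size. The alternatives were DESeq2 1.42.0, limma-voom (limma 3.58.1) without and with sample quality weights, RLE scaling, all genes unfiltered, a minimum of 10 counts per library, removal of the gene length trend by loess of span 0.3, the replicate number as a block (alone or with that removal), and the omission of each library. Permutation tests were exact, two-sided and on mean log2 CPM. In counts simulated for 17155 genes at this design, edgeR recovered 41 of 100 changes of log2 1 and 83 of 100 of log2 2, with 1 false call. The genes and lists were chosen with earlier results of these data known. All 10 receptor and ligand genes are described, and list genes are named if called or among the 2 with the lowest p in each direction with a mean of at least 1 CPM. Marker lists are given mainly by counts and sums, and Sox10 was named after its values were seen. Length band, GC box, TATAAA, receptor ratios and the supporting cell sum without Otog and Tecta were added after the data were seen. Python 3.11.15, pandas 2.3.3 and matplotlib 3.10.9 served for tables and figures.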

Additional observations from a re-analysis of the deposited data

How the results depend on the processing

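Over the 16 alternative fits, the count of receptor and ligand genes called stayed at 0 in 15 and was 1 (Hbegf, 0.97) under limma-voom with sample quality weights, and the count of pathway genes called was 1 under DESeq2 (Dusp5) and 1 under limma-voom with sample quality weights (Ccnd1). The fold change turned for Egfr, to -0.11 with the gene length trend removed and -0.10 with the replicate block and that correction, and for Nrg1, to -0.23 and -0.20. The cause was not tested. The other 8 genes kept their direction in every fit that gave a value, and Areg had none with at least 10 counts in every library. Same-numbered libraries did not deviate together (r of 0.06, -0.04 and 0.03), so the numbers were not taken as pairs. With the replicate block, 0 of the 10 genes were called. By edgeR, 6 had an unadjusted p under 0.05, all higher in Gent+Fos OE, against 4 without the block. Over all tested genes, 9.89% were higher with the block and 11.1% without it. Replicate number 4 exists only in Gent+Fos OE, so in both block fits that library adds nothing to the difference between the groups. The 6 and the 4 thus do not rest on the same libraries. With Gent+Fos OE replicate 4 left out and no block, 5 genes had an unadjusted p under 0.05 by edgeR. Areg had 0 to 25 counts per library, and what limits the precision of each gene was not tested.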
